A study of Mus musculus with 6 samples.

Results

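The genes described are 34 antioxidant and NRF2-linked genes, chosen by symbol, and all 34 had an entry among the 25711 genes of the deposited table. They cover the transcription factor NRF2 and its partner KEAP1, glutathione supply and use, the thioredoxin system, the peroxiredoxins, the superoxide dismutases, the biliverdin reductases and thiol repair. RNA was sequenced from wild-type mouse bone marrow-derived macrophages, macrophages obtained by culturing marrow progenitors. The CCL7 group (3 libraries) received 500 ng/ml of the CC chemokine CCL7 for 24 h, and the control group (3 libraries) was kept for 24 h. The labels name no vehicle for the controls. Whether replicates were independent cultures or mice is not stated, so p-values measure the spread between these libraries, which may be technical. The series asks how CCL7 relates to macrophage polarization in rheumatoid arthritis.

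NRF2, encoded by Nfe2l2, is a transcription factor held in the cytosol and marked for destruction by KEAP1, a sensor whose cysteines react with oxidants and electrophiles. When KEAP1 is modified, NRF2 accumulates, pairs with small MAF proteins and binds antioxidant response elements at genes for glutathione synthesis, thioredoxin recycling and quinone detoxification, while BACH1 competes for the same elements. NRF2 acts largely at the level of protein, so the RNA level of Nfe2l2 is no measure of its activity. Activated macrophages make superoxide, hydrogen peroxide and nitric oxide, and the enzymes below consume such species or repair what they oxidise.

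The libraries held 43289351 to 51161400 counts with CCL7 and 34860523 to 44561204 in the controls. Libraries of the same group had a Pearson's r over genes of 0.995 to 0.998 on log2 values, and libraries of different groups one of 0.887 to 0.897. No 2 libraries of a group agreed within counting noise. CCL7 replicate 2 stood apart from the other CCL7 libraries on the second principal component, which held 1.77% of the variance. The macrophage genes Lyz2 (19063 ± 851 with CCL7 and 8143 ± 277 in controls), Csf1r (738 ± 24.8 and 527 ± 3.25) and Adgre1 (1655 ± 53.7 and 313 ± 4.45) were abundant in both groups, in FPKM scaled by TMM as defined below (mean ± SD, n = 3 per group). Markers of other cells were scarce. Of 10 neutrophil markers 7 had an entry, and their summed level was 15.4 to 23.2 with CCL7 against 1.14 to 1.45 in controls. That sum came mostly from S100a8 (17.7 ± 3.89 with CCL7 and 1.18 ± 0.113 in controls), and the granule gene Camp was also higher in each CCL7 library (1.52, 2.11 and 1.32 with CCL7, against 0, 0.165 and 0.14 in controls). Ly6g and S100a9 were detected in CCL7 replicate 1 alone, Ltf was at most 0.0241 in any library, and Elane and Cxcr2 were at 0 in all CCL7 libraries. The part of the neutrophil list in the results below was not tested. The summed levels of the erythroid, chondrocyte, fibroblast and dendritic lists were at most 1.38 in any library, and that of the lymphocyte list was at most 0.167 with CCL7 and 1.71 to 2.45 in controls.

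With CCL7, most of these genes were higher, and the rises were uneven. The cystine importer gene Slc7a11 rose 55.6-fold, from a level of only 0.897 ± 0.0438 FPKM in controls. The mitochondrial superoxide dismutase gene Sod2 rose 24.5-fold, the peroxiredoxin gene Prdx5 rose 18.3-fold and the glutaredoxin gene Glrx rose 7.25-fold. Nfe2l2 itself was 1.18-fold higher with TMM scaling. It differed by 0.00 on the log2 scale with the deposited totals and was called lower with quantile normalization. Keap1 and Gclc, which encodes the catalytic subunit for glutathione synthesis, did not pass the test. The microsomal transferase gene Mgst3 fell to 15.2 ± 2.02 FPKM with CCL7, against 52.7 ± 3.61 FPKM in controls. Because these are bulk samples, a change in the share of cells that carry an RNA and a change in the RNA per cell cannot be told apart.

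Counts were tested with edgeR's quasi-likelihood test, and a call means a Benjamini-Hochberg adjusted p under 0.05 over the 11143 genes whose FPKM averaged 1 or more. Levels are FPKM, counts divided by gene length and library total, scaled between libraries by TMM, and log2 changes are CCL7 over control with a standard error (SE) from 3 libraries per group. Of the 34 members 33 were tested. The exception, the alpha-class glutathione transferase gene Gsta4, had 0, 6 and 4 counts with CCL7 and 0, 8 and 6 counts in controls. Of the 33 tested, 25 rose, 6 fell and 2 did not pass. Over all tested genes 33.9% were called higher and 35.2% lower. Rises of at least 2-fold were called for 13 members, against 7.71% of all tested genes, and a fall of at least 2-fold for 1 member, against 8.69%. With the deposited totals, and also with quantile normalization, 11 members were called at least 2-fold higher and 2 at least 2-fold lower. Osgin1 and Txnrd1 were under 2-fold there, and Prdx4 joined Mgst3 among the falls. The shares of all tested genes at that size were not counted for these scalings. The median log2 change of the members was 0.64, beside -0.01 for all tested genes.

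**Figure D1:**
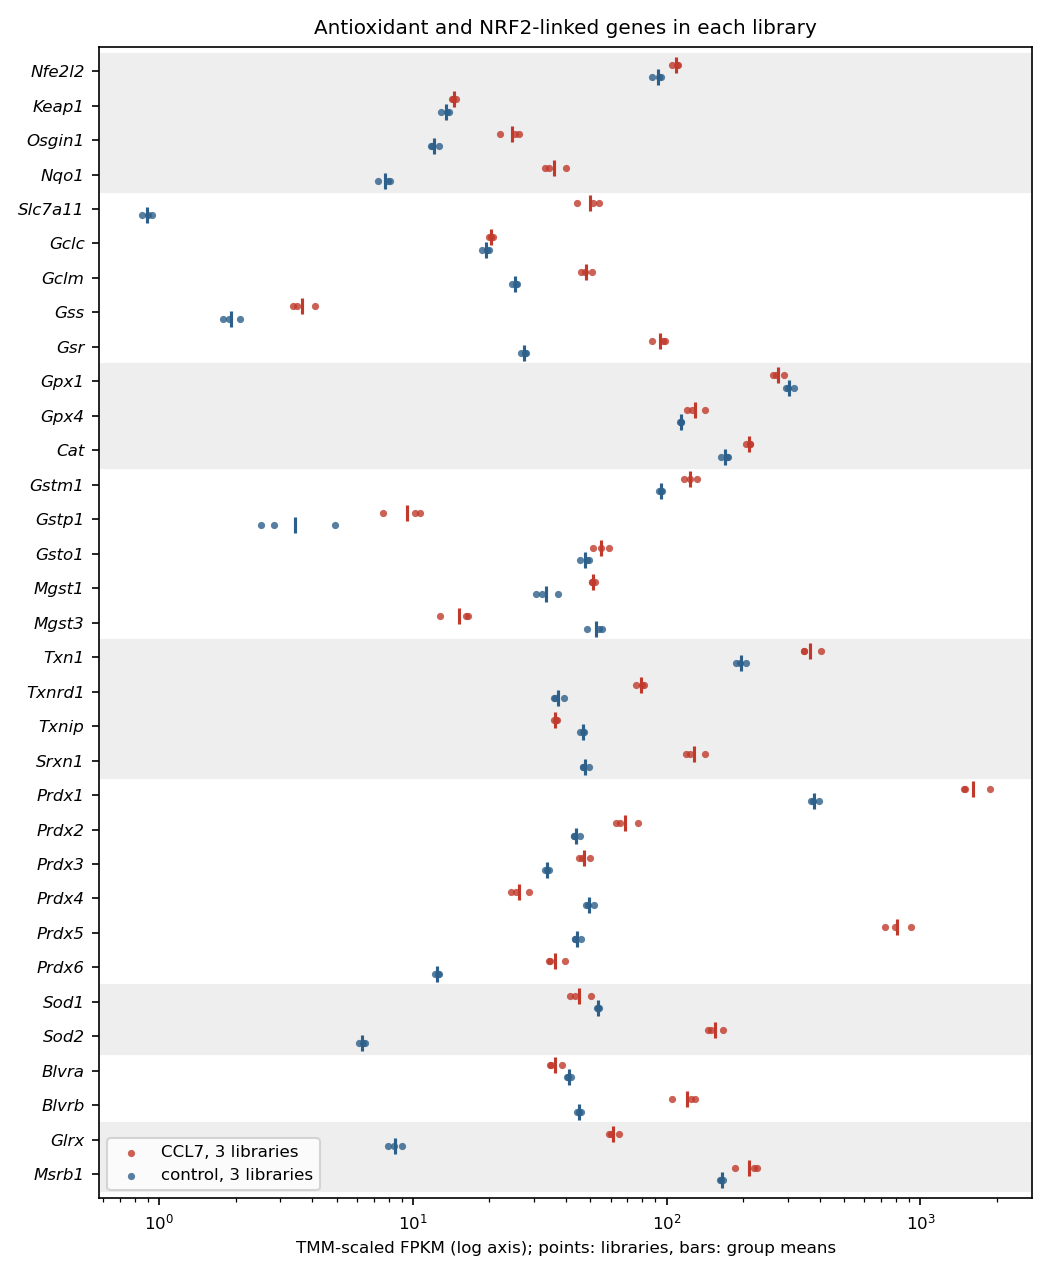
Levels of 33 members in each library, in TMM-scaled FPKM on a log axis, with CCL7 above control in each row, points for libraries and vertical bars for group means. Gsta4, at 0 in 2 libraries, is left out. The groups are farthest apart at Slc7a11, Sod2 and Prdx5 and lie close together at Nfe2l2, Keap1, Gclc and Gpx4.

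The axis of the sensor and its factor moved little. Nfe2l2 (ENSMUSG00000015839, chromosome 2, 75675513 to 75704641, minus strand, GRCm38) had 111, 110 and 105 FPKM with CCL7, against 87.3, 93.5 and 95.1 FPKM in controls. The CCL7 libraries were all above the controls. Its log2 change was 0.24 ± 0.05 (edgeR adjusted p = 0.00138) and was 0.00 with the deposited library totals as scale. With quantile-normalized values it was -0.13 and called lower (limma adjusted p = 0.043), so its direction depends on the scaling. Keap1 had 14.8, 14.2 and 14.4 FPKM with CCL7 and 13.9, 13.6 and 12.9 FPKM in controls. Its log2 change of 0.10 ± 0.04 did not pass (edgeR adjusted p = 0.0922), although it passed without CCL7 replicate 2 (0.11, adjusted p = 0.0342) and was called lower with the deposited totals (-0.14). The ratio of the Nfe2l2 to the Keap1 level, which needs no scaling between libraries, was 7.52, 7.76 and 7.33 with CCL7 and 6.28, 6.85 and 7.36 in controls, and the groups overlapped.

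Both targets grouped with this axis were higher. Nqo1, which encodes a quinone reductase widely used as a readout of NRF2 activity, had 33.2, 40.1 and 34.3 FPKM with CCL7, against 7.98, 7.26 and 8.08 FPKM in controls. The groups lay far apart, and the log2 change was 2.21 ± 0.10 (edgeR adjusted p = 4.54e-09). Osgin1, which encodes an oxidative stress-induced growth inhibitor, had 22.0, 26.1 and 25.2 FPKM with CCL7, against 12.6, 11.8 and 11.9 FPKM in controls (log2 change 1.01 ± 0.08). The Osgin1 change was under 2-fold on other scales (0.77 with the deposited totals and 0.86 with quantile normalization) and without CCL7 replicate 2 (0.96), and it was called higher in each of these.

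**Figure D2:**
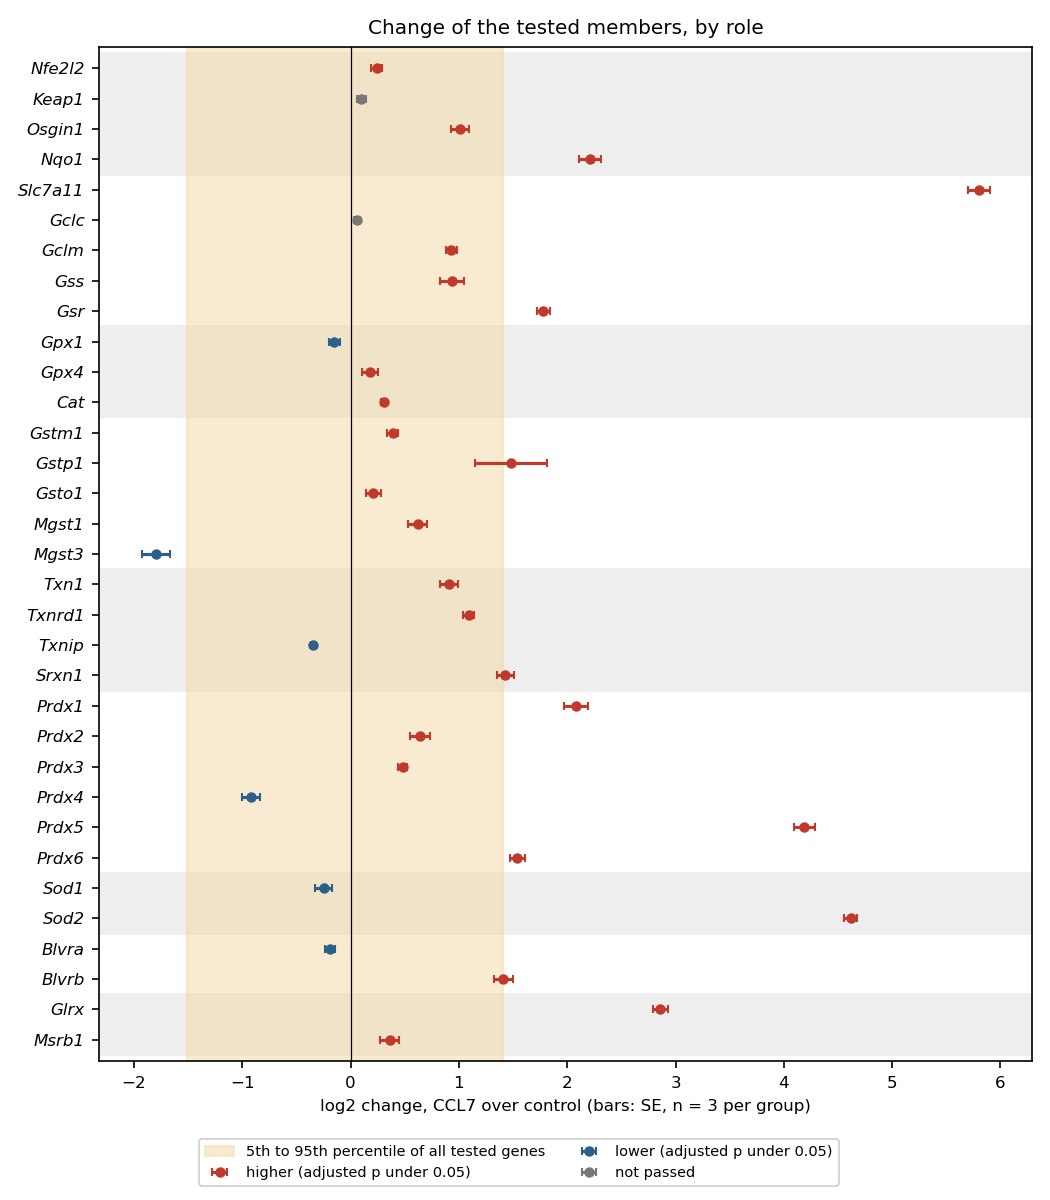
Log2 change, CCL7 over control, of the 33 tested members in order of role, with SE from 3 libraries per group; the shaded band spans the 5th to the 95th percentile of all tested genes (-1.51 to 1.41). Slc7a11, Sod2, Prdx5 and Glrx lie far to the right of the band, and Mgst3 lies to its left.

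Antioxidant response elements were looked for in the DNA before the starts of the members, because several of the members are known NRF2 targets. RefSeq windows (build GRCm38.p6, from 250 bases before to 50 after a start) were given for 30 of the 34 members, and Gsr, Gsta4, Prdx6 and Gclc had none. The core letters TGACNNNGC, searched on both strands, occurred in a window of 8 of the 30 members (26.7%), against 14% of 27025 genes. Those 8 were Srxn1, Prdx1, Txnrd1, Gclm, Mgst1 and Nfe2l2, which rose with TMM scaling (Nfe2l2 with a direction that depends on the scaling), and Blvra and Sod1, which fell. The related core TGAGNNNGC, searched after the windows had been seen, occurred in 6 of the 30 (20%), against 19.8% of all genes, and the heptamer TGACTCA in 5 (16.7%, against 5.95%). The heptamer can overlap a match of either core. A match is a description of letters and not a binding site. The windows below are shown because Srxn1, Prdx1 and Txnrd1 are members with the first core, and because Slc7a11 and Prdx5 were among the largest rises. Each is printed 5′ to 3′ along the gene from the upstream end to the last base before an exon of GENCODE M21, and capitals mark a match of either core on either strand.
Srxn1: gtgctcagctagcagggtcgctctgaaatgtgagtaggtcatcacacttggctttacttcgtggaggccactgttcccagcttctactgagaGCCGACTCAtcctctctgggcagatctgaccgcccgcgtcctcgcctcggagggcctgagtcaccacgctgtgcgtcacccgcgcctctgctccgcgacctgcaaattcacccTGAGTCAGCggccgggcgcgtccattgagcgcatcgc
Prdx1: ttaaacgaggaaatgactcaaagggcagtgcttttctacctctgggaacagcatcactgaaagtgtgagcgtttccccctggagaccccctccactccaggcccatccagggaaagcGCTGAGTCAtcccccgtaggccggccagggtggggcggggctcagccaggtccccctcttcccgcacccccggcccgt
Txnrd1: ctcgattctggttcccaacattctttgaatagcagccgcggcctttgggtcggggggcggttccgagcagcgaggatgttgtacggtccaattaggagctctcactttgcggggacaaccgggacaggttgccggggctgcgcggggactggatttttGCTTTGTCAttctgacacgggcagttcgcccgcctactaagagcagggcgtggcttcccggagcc
Slc7a11: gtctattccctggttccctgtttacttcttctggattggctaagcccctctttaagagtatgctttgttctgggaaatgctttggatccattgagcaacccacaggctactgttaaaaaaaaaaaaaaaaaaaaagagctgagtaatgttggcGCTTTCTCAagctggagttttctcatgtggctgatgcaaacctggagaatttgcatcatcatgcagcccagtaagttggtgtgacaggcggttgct
Prdx5: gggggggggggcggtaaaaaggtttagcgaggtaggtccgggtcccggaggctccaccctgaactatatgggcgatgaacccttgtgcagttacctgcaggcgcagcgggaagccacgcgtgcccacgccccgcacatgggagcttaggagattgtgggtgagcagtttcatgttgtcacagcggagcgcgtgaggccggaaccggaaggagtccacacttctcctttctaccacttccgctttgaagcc
The Srxn1 sequence is chr2:152105274-152105515, plus strand, and its match of the first core lies after the printed part. The Prdx1 sequence is chr4:116685349-116685543, plus strand. The Txnrd1 sequence, before a start inside the gene, is chr10:82858956-82859178, plus strand. The Slc7a11 sequence is chr3:50443615-50443863, minus strand, with a match of the second core alone. The Prdx5 sequence is chr19:6910107-6910356, minus strand, and neither core occurred in its window.

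Glutathione is made from cystine-derived cysteine in consecutive steps, and the genes of those steps differed in how far they rose. Slc7a11 (ENSMUSG00000027737, chromosome 3, 49892526 to 50443614, minus strand), which encodes the cystine-specific chain of the cystine-glutamate exchanger, had 54.0, 44.2 and 51.3 FPKM with CCL7, against 0.904, 0.850 and 0.937 FPKM in controls. The change was 5.80 ± 0.10 on the log2 scale (edgeR adjusted p = 1.35e-11), rank 51 of the 11143 tested genes. Slc7a11 reached the mean of 1 FPKM needed for testing only through its CCL7 libraries, and its log2 change was 5.85 without that filter. Only Gsta4 had a lower control level among the 34 members, whereas 18 members were above Slc7a11 with CCL7. Its partner chain is encoded by Slc3a2, which serves several transporters and was chosen for this ratio after its values were seen. The ratio of Slc7a11 to Slc3a2 was 0.362, 0.273 and 0.340 with CCL7 and 0.0127, 0.0120 and 0.0132 in controls, a log2 difference of 4.67 ± 0.13.

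The glutamate-cysteine ligase that performs the first step of synthesis has 2 subunits. Gclm, the modifier subunit, rose (48.1 ± 2.55 FPKM with CCL7 and 25.2 ± 0.636 in controls, log2 change 0.93 ± 0.05, edgeR adjusted p = 8.69e-08). Gclc, the catalytic subunit, had 19.9, 20.2 and 20.6 FPKM with CCL7 and 20, 19.5 and 18.7 FPKM in controls, and the groups overlapped. Its log2 change of 0.06 ± 0.03 did not pass (edgeR adjusted p = 0.271), and it was -0.18 and called lower with the deposited totals. The ratio of Gclm to Gclc was therefore 2.38 ± 0.121 with CCL7 and 1.30 ± 0.0569 in controls. Gss, glutathione synthetase, had 3.49, 4.11 and 3.35 FPKM with CCL7 and 2.07, 1.78 and 1.88 FPKM in controls (0.94 ± 0.11), on counts of 2733 and 1396. Its exons share 395 bases with the opposite-strand gene Acss2 (2535 counts with CCL7 and 667 in controls), and the strand setting of the counting is not given in the sources used here. Gsr, the reductase that returns oxidised glutathione to its working form, rose to 96.7, 98.0 and 87.4 FPKM with CCL7, against 27.9, 26.6 and 27.7 FPKM in controls (1.78 ± 0.06, edgeR adjusted p = 1.22e-09).

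The main peroxide-removing enzymes that use glutathione or haem changed little with TMM scaling. Gpx1, the cytosolic glutathione peroxidase, had 270, 289 and 262 FPKM with CCL7 and 317, 295 and 301 FPKM in controls. Its log2 change of -0.15 ± 0.05 passed narrowly (edgeR adjusted p = 0.0237). The adjusted p was 0.0913 without CCL7 replicate 1, 0.119 without CCL7 replicate 3, and 0.101 and 0.0572 without control replicates 1 and 3. Gpx4, which reduces lipid peroxides in membranes, had 120, 141 and 126 FPKM with CCL7 and 113, 114 and 114 FPKM in controls. The log2 change of 0.18 ± 0.07 (edgeR adjusted p = 0.0232) missed the threshold without any 1 of the control replicates (0.0648 to 0.0690). It was -0.06 with the deposited totals, and -0.17 and called lower with quantile normalization (limma adjusted p = 0.00595). A pseudogene copy, Gpx4-ps2, held 4777 counts with CCL7 and 3897 in controls beside 28071 and 24319 for Gpx4, so reads may be split between them. Cat, catalase, had 206, 212 and 213 FPKM with CCL7 and 163, 172 and 174 FPKM in controls (0.31 ± 0.03, edgeR adjusted p = 0.000141). Under the deposited totals the catalase change was 0.07 and not called, and under quantile normalization it was -0.05. These 3 genes ranked among the 8 highest of the 34 members in both groups.

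Glutathione transferases, which join glutathione to electrophiles, went both ways. Mgst3 (ENSMUSG00000026688, chromosome 1, 167371966 to 167393841, minus strand), a membrane enzyme of this family, had 12.8, 16.2 and 16.5 FPKM with CCL7, against 55.6, 53.8 and 48.6 FPKM in controls. It was the largest fall among the tested members (log2 change -1.80 ± 0.13, edgeR adjusted p = 5.20e-08). Its relative Mgst1 was higher, with 50.7, 51.9 and 50.5 FPKM with CCL7 and 30.5, 32.3 and 37.2 FPKM in controls (0.62 ± 0.09). The ratio of Mgst1 to Mgst3 was 3.95, 3.21 and 3.07 with CCL7 and 0.550, 0.600 and 0.764 in controls, so the order of the pair was opposite in the groups.

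Among the soluble transferases, the pi-class gene Gstp1 had 10.2, 10.6 and 7.59 FPKM with CCL7 and 4.90, 2.82 and 2.52 FPKM in controls. It had the widest spread of the tested members (1.48 ± 0.33, edgeR adjusted p = 0.000177). The mu-class gene Gstm1 had 117, 131 and 124 FPKM with CCL7 and 95.8, 94.8 and 93.2 FPKM in controls (0.39 ± 0.05), and its change was 0.02 and not called with quantile normalization. The omega-class gene Gsto1 had 51.3, 59.2 and 54.8 FPKM with CCL7 and 45.3, 48.3 and 49.5 FPKM in controls. Its change of 0.21 ± 0.07 (edgeR adjusted p = 0.0143) was not called without control replicate 1 (adjusted p = 0.0697), and it was -0.03 with the deposited totals and -0.07 with quantile normalization. Gstm1 and Gstp1 have close relatives in tandem, between which the counting may split reads. Gsta4 did not pass in a fit without the expression filter (edgeR adjusted p = 0.807). Summed over the 6 transferase members, the level was 255 ± 13.6 FPKM with CCL7 and 232 ± 0.590 FPKM in controls, and the share of Mgst3 was 5.95% ± 0.605 with CCL7 and 22.7% ± 1.5 in controls.

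The thioredoxin system reduces protein disulfides with electrons from NADPH, and 3 of its 4 members rose. Txnrd1, thioredoxin reductase of the cytosol, had 80.2, 81.3 and 75.4 FPKM with CCL7 and 39.2, 36.0 and 36.4 FPKM in controls (1.09 ± 0.05, edgeR adjusted p = 2.66e-08). Txnrd1 rose by under 2-fold with the deposited totals (0.84) and with quantile normalization (0.79), and was called higher in both. Its substrate gene Txn1, thioredoxin, had 349, 406 and 349 FPKM with CCL7 and 206, 188 and 195 FPKM in controls (0.91 ± 0.08). Srxn1, sulfiredoxin, which rescues over-oxidised peroxiredoxins, had 119, 141 and 124 FPKM with CCL7 and 49.2, 46.7 and 46.7 FPKM in controls (1.43 ± 0.08, edgeR adjusted p = 1.69e-08). In each of these genes the lowest CCL7 library was well above the highest control.

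Txnip, which encodes an inhibitor that binds thioredoxin, went the other way. It had 35.9, 36.8 and 36.5 FPKM with CCL7 and 45.5, 47.3 and 46.9 FPKM in controls, and the groups did not overlap (-0.35 ± 0.02, edgeR adjusted p = 5.48e-05). The ratio of Txn1 to Txnip was 10.1 ± 0.815 with CCL7 and 4.22 ± 0.279 in controls.

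Peroxiredoxins reduce hydrogen peroxide through a reactive cysteine, and 5 of the 6 rose. Prdx1 (ENSMUSG00000028691, chromosome 4, 116685544 to 116700822, plus strand), a cytosolic member, was the most abundant of the 34 genes in both groups. It had 1483, 1873 and 1496 FPKM with CCL7, against 397, 378 and 371 FPKM in controls (2.08 ± 0.11, edgeR adjusted p = 7.46e-09). Among all tested genes its level ranked 16 with CCL7 and 63 in controls. Prdx5 (ENSMUSG00000024953, chromosome 19, 6906697 to 6910106, minus strand), which is found in mitochondria, peroxisomes and cytosol, had 724, 917 and 791 FPKM with CCL7, against 43.5, 43.3 and 46.0 FPKM in controls. Its log2 change of 4.19 ± 0.10 (edgeR adjusted p = 6.36e-11) took it to rank 38 of all tested genes by level with CCL7, against rank 956 in controls. Its exons share 409 bases with the opposite-strand gene Trmt112, which held only 2576 counts with CCL7 and 2680 in controls beside 218821 and 11739 for Prdx5.

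The other peroxiredoxins moved less. Prdx6, the 1-cysteine member, had 34.3, 39.7 and 34.6 FPKM with CCL7 and 12.7, 12.2 and 12.5 FPKM in controls (1.54 ± 0.07). Prdx2, the other main cytosolic member, rose by 0.64 ± 0.09 and Prdx3, located in mitochondria, by 0.48 ± 0.04. Exons of Prdx2 share 173 bases with Junb on the opposite strand, which held 23851 counts with CCL7 and 13225 in controls beside 26424 and 16570 for Prdx2. Prdx4, the member of the endoplasmic reticulum, had 25.4, 28.5 and 24.3 FPKM with CCL7 and 51.7, 47.9 and 48.8 FPKM in controls and was the only one to fall (-0.92 ± 0.08, edgeR adjusted p = 5.54e-07).

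Because the family was unevenly raised, its makeup differed between the groups. The summed peroxiredoxin level was 2379, 2985 and 2454 FPKM with CCL7 and 584, 559 and 555 FPKM in controls. Prdx5 held 30.4%, 30.7% and 32.2% of it with CCL7, against 7.44%, 7.76% and 8.30% in controls. Prdx4 held 1% ± 0.0573 with CCL7 and 8.74% ± 0.152 in controls, and Prdx1 held 62.0% ± 0.938 with CCL7 and 67.5% ± 0.563 in controls. Sulfiredoxin rose less than its main substrate gene: the ratio of Srxn1 to Prdx1 was 0.0794 ± 0.00399 with CCL7 and 0.124 ± 0.00121 in controls.

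**Figure D3:**
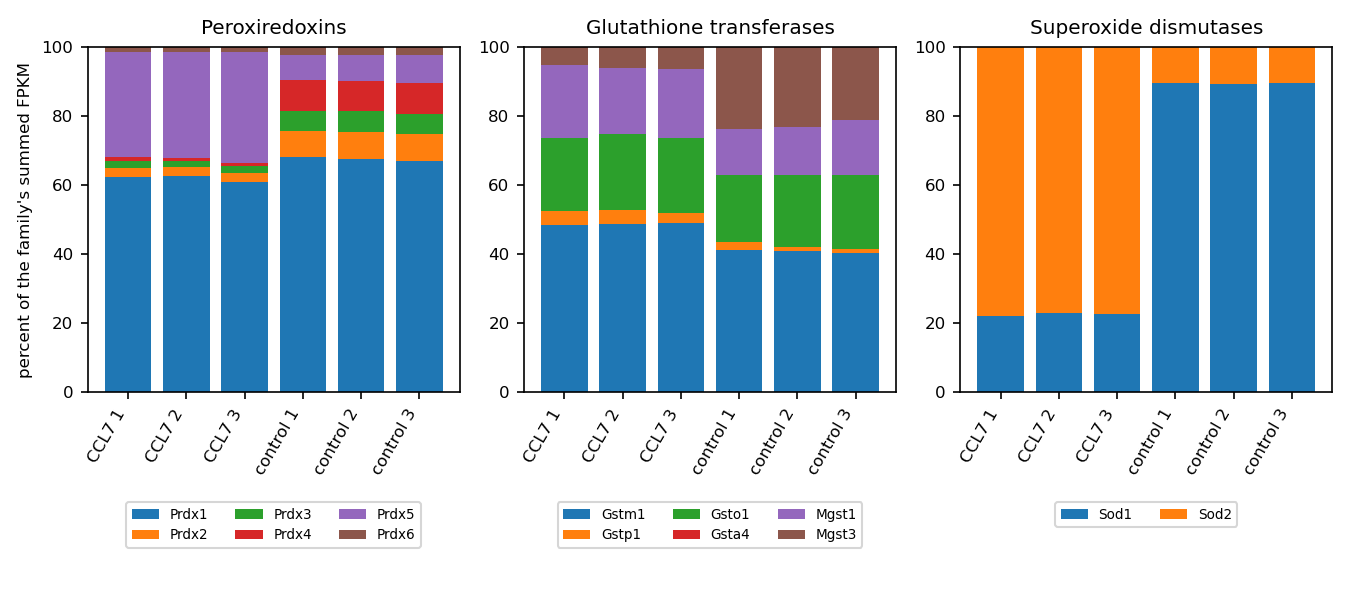
Share of each gene in the summed FPKM of its family in the 6 libraries, CCL7 at the left and control at the right, as stacked percentages. Prdx5 takes about 31.1% of the peroxiredoxin sum with CCL7 and 7.83% in controls, Mgst3 shrinks among the transferases, and Sod2 takes 77.5% of the dismutase sum with CCL7 and 10.5% in controls.

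Superoxide dismutases turn superoxide into hydrogen peroxide. Sod2 (ENSMUSG00000006818, chromosome 17, 13006846 to 13040063, plus strand), the manganese enzyme of mitochondria and a known NF-kB target, had 146, 167 and 150 FPKM with CCL7, against 6.13, 6.46 and 6.33 FPKM in controls. The groups lay far apart, and Sod2 rose by 4.62 ± 0.06 on the log2 scale (edgeR adjusted p = 1.19e-11). Sod1, the copper-zinc enzyme of the cytosol, had 41.4, 50.1 and 43.5 FPKM with CCL7 and 53.3, 53.5 and 53.8 FPKM in controls, and fell (-0.25 ± 0.08, edgeR adjusted p = 0.00751). The pair thus changed order: the ratio of Sod2 to Sod1 was 3.53, 3.34 and 3.45 with CCL7 and 0.115, 0.121 and 0.118 in controls, a log2 difference of 4.87 ± 0.03.

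The biliverdin reductases showed a similar split. Blvrb, which reduces flavins and biliverdin and is abundant in red cells, had 105, 129 and 125 FPKM with CCL7 and 44.9, 46.1 and 44.1 FPKM in controls (1.41 ± 0.09, edgeR adjusted p = 4.59e-08). Blvra, which makes bilirubin, had 34.7, 38.5 and 35.1 FPKM with CCL7 and 40.4, 42.0 and 40.9 FPKM in controls. Its log2 change of -0.19 ± 0.05 (edgeR adjusted p = 0.0106) missed the threshold without CCL7 replicate 1 (0.0582), CCL7 replicate 3 (0.0514) or control replicate 2 (0.0512). The ratio of Blvrb to Blvra was 3.31 ± 0.255 with CCL7 and 1.09 ± 0.0167 in controls.

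Both genes of protein repair were called higher. Glrx, glutaredoxin, which removes glutathione from protein thiols, had 60.2, 64.7 and 59.4 FPKM with CCL7, against 9.08, 8.38 and 7.96 FPKM in controls (2.86 ± 0.07, edgeR adjusted p = 9.63e-11). Msrb1, a selenoprotein that reduces oxidised methionine, had 185, 226 and 220 FPKM with CCL7 and 164, 162 and 167 FPKM in controls (0.36 ± 0.09, edgeR adjusted p = 0.00131), but its change was 0.11 with the deposited totals and -0.01 with quantile normalization.

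Several of the small changes differed with the scale set between libraries. With the deposited totals the median log2 change of all tested genes was -0.26, against -0.01 with TMM, and the share of calls that were higher was 27.7%, against 49.1%. Relative to the median of all genes, the median of the members was 0.65 higher with TMM, 0.66 higher with the deposited totals and 0.36 higher with quantile normalization. With either of the first pair 27 of the 33 members lay above the median of all genes, and with quantile normalization 21 did. The members called higher numbered 20 with the deposited totals and 19 with quantile normalization, and 8 were called lower in each. Beside these, over all tested genes, 27.7% of the calls were higher with the deposited totals and 47.7% with quantile normalization.

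**Figure D4:**
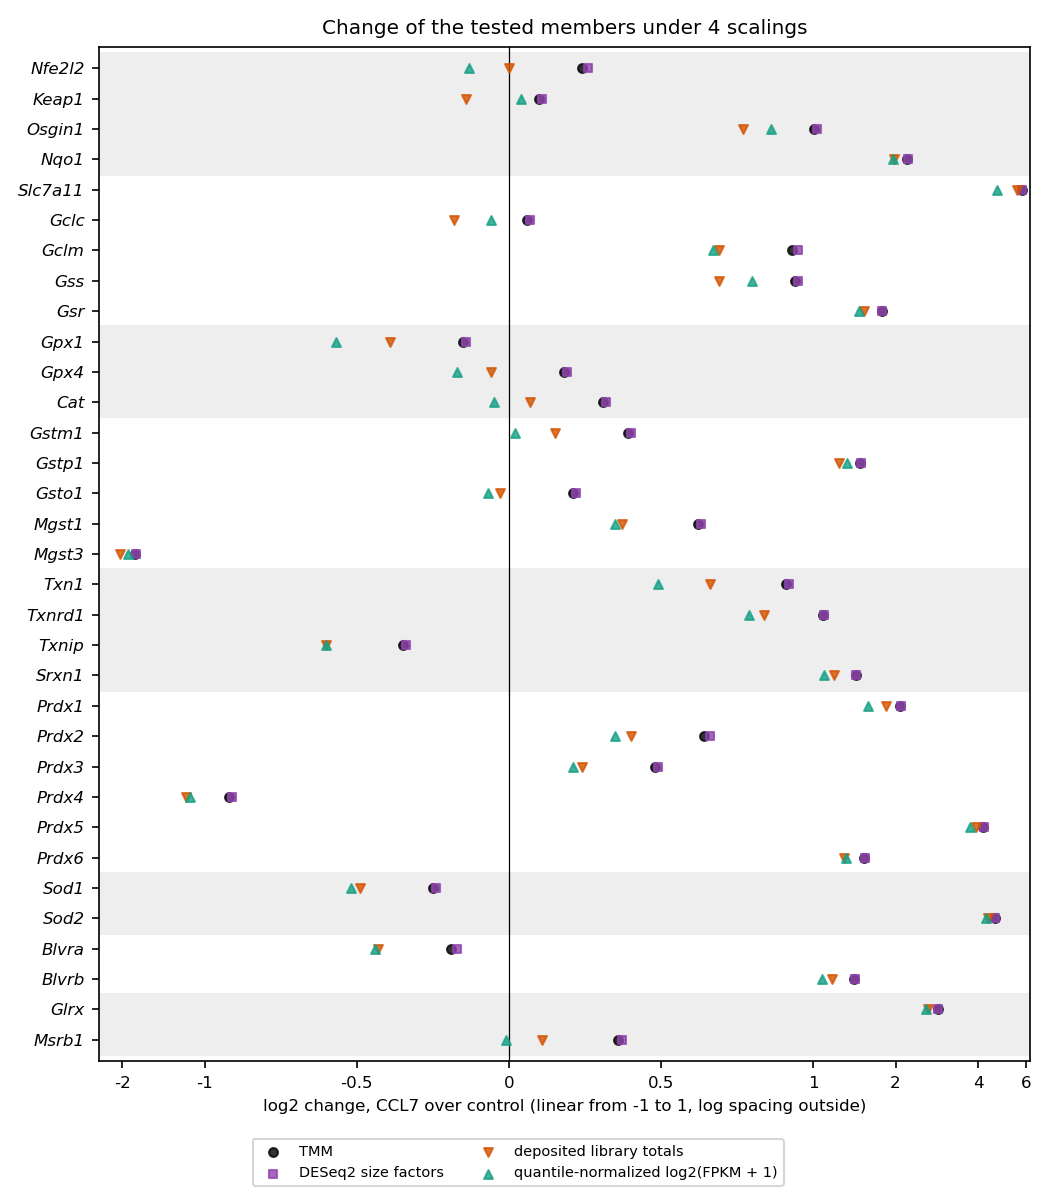
Log2 change, CCL7 over control, of the 33 tested members under TMM, DESeq2 size factors, deposited library totals and quantile-normalized log2(FPKM + 1), on an axis that is linear between -1 and 1 and log-spaced outside. Large rises such as Slc7a11, Sod2, Prdx5 and Glrx stay far right under all 4 scalings, while Nfe2l2, Keap1, Gclc, Gpx4, Cat, Gsto1 and Msrb1 straddle 0.

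Genes outside the list but in the same pathways were read from a list of 77, of which 76 had an entry and 58 were tested. Of those 58, 37 rose, 15 fell and 6 did not pass, with a median log2 change of 0.34. Among the partners and rivals of NRF2, the small MAF gene Maff rose most (3.21 ± 0.607 FPKM with CCL7 and 0.439 ± 0.0817 in controls, log2 change 2.88 ± 0.22). Mafg rose by 0.97 ± 0.02, and Mafk did not pass (0.10 ± 0.06, edgeR adjusted p = 0.147, and -0.14 with the deposited totals). Bach1, the repressor of antioxidant response elements, fell to 14.6 ± 1.79 FPKM with CCL7, against 23.8 ± 1.14 FPKM in controls (-0.71 ± 0.11, edgeR adjusted p = 2.73e-05). The ratio of Mafg to Bach1 was 3.13, 3.56 and 2.90 with CCL7 and 1.03, 0.953 and 0.985 in controls.

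The related factor gene Nfe2l1 rose (1.03 ± 0.04), and so did Sqstm1, which encodes the autophagy receptor p62 that binds KEAP1 (0.84 ± 0.07, 333 ± 29.1 FPKM with CCL7 and 186 ± 3.99 in controls). The ligase subunit genes that work with KEAP1 moved little, Cul3 by 0.33 ± 0.03 and Rbx1 by 0.25 ± 0.11. Neither was called with the deposited totals (0.09 and 0.01), and Rbx1 was also not called without control replicate 2 (adjusted p = 0.0745) or control replicate 3 (0.0571) in edgeR. Bach2 had 17 counts with CCL7 and 86 in controls, and Nfe2l3 had 54 and 47 counts. Hmox1, which encodes haem oxygenase 1 and is a target of both NRF2 and BACH1, rose to 633 ± 30.0 FPKM with CCL7, against 128 ± 3.92 FPKM in controls (2.31 ± 0.05, edgeR adjusted p = 9.63e-11).

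Of the rest of that list, the 8 largest changes lay in both directions. Higher were the transferase genes Gstm2 (3.56 ± 0.15), Gsta3 (2.56 ± 0.12) and Mgst2 (2.00 ± 0.24), the glutathione-cycle gene Ggct (1.91 ± 0.14) and Esd, which encodes the hydrolase of S-formylglutathione (1.62 ± 0.09). Lower were the epoxide hydrolase gene Ephx1 (-2.38 ± 0.20), the sestrin gene Sesn1 (-1.90 ± 0.05) and Gpx3, which encodes the secreted glutathione peroxidase (-1.73 ± 0.06). Gstm2 and Gsta3 stood at only 4.76 ± 0.438 and 6.85 ± 0.773 FPKM with CCL7, against 0.405 ± 0.0621 and 1.17 ± 0.109 FPKM in controls. Control levels were 0.954 ± 0.267 FPKM for Mgst2 and 0.592 ± 0.0446 FPKM for Ggct. Gstm2 and Ggct, like Maff and Slc7a11, reached the mean of 1 FPKM needed for testing only through their CCL7 libraries. The Gstm2 change was 1.90 with limma on log2(FPKM + 1). By group and with TMM, all 6 tested genes of NADPH supply rose, 11 of 19 glutathione genes rose and 7 fell, 7 of 14 thioredoxin and peroxide genes rose and 5 fell, and 7 of 11 genes of haem, quinone and carbonyl detoxification rose and 2 fell, beside 33.9% higher and 35.2% lower over all tested genes. With the deposited totals 5 of the 6 NADPH genes were called higher, the exception being Taldo1, which encodes transaldolase and was called lower with quantile normalization. With the deposited totals 2 of 14 thioredoxin and peroxide genes were called higher and 6 lower. Of 11 genes of haem, quinone and carbonyl detoxification 5 were called higher and 4 lower, and of 19 glutathione genes 11 and 8. Over all 11143 tested genes 2288 were called higher and 5965 lower with these totals.

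**Figure D5:**
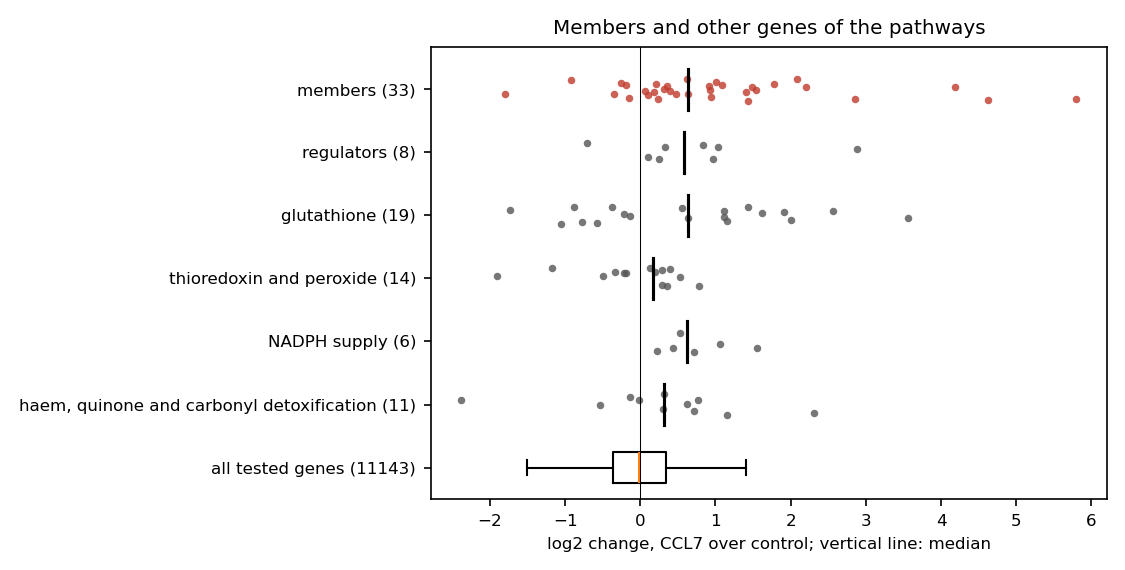
Log2 change with TMM scaling, CCL7 over control, of the 33 tested members (top row) and of the other tested genes of the pathways by group, with the number of genes in parentheses, 1 point per gene and a vertical line at each median. The box at the bottom spans the quartiles of all 11143 tested genes with whiskers from the 5th to the 95th percentile. The members' median is 0.64, and each group holds genes on both sides of 0 except NADPH supply, whose 6 genes are all above it with TMM (Taldo1 was called lower with quantile normalization).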

How the data were processed

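RNA-seq libraries of 3 CCL7 and 3 control samples were analysed. Per the file headers, the deposited table pairs raw counts with FPKM for every library. The FPKM values deposited by the authors are counts divided by gene length and library total. The gene length they imply was the exon length in GENCODE M21 (GRCm38) for each of the 34 members, so coordinates are from that annotation. The submitters' processing notes name mm8 and mm9 as builds and Bowtie 0.12.2 as a tool, without saying what each was used for. How reads were assigned to genes, and on which strand, is not given in the sources used here.

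Counts of the 11143 genes whose FPKM averaged 1 or more were tested in edgeR 4.0.16 by the 2-sided quasi-likelihood test, with TMM scaling and no covariate beside the group. Adjustment was by Benjamini-Hochberg over those genes and a threshold of 0.05. SEs come from the SDs of the TMM-scaled log2 counts in each group. Alternatives were deposited totals, DESeq2 1.42.0, limma 3.58.1 on log2(FPKM + 1), log2(FPKM + 0.1) and quantile-normalized values, no expression filter, counts divided by 2 (even numbers made up 66% of counts from 1 to 9, against 50.1% of those of 100 or more), each library left out, and the replicate number as a block. The scripts were tested on simulated data.

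All 34 members are named. Of the other pathway genes, Hmox1, the regulators and the 8 largest called changes are named. Taldo1, Slc3a2 and the genes of the closing observations were chosen after their values were seen. The members and lists were chosen with earlier results of these data known. Ratios, family shares and the motifs TGAGNNNGC and TGACTCA were added after the values were seen and carry no test. FPKM ratios compare genes per length within a library.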

Additional observations from a re-analysis of the deposited data

How the results depend on the processing

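The count of members called higher ran from 19 to 26 and of those called lower from 4 to 8 over 14 alternatives, and that of the other pathway genes from 27 to 38 and from 13 to 19. Over all genes, 2288 were higher and 5965 lower with the deposited totals, 2288 and 5936 with limma on log2(FPKM + 1), and 2284 and 5916 with limma on log2(FPKM + 0.1), against 3779 and 3919 with TMM. Leaving out 1 library gave 23 to 26 members higher and 4 to 6 lower, and 3423 to 3957 genes higher and 3536 to 4087 lower. With the deposited totals the log2 change was turned for Keap1 (-0.14), Gclc (-0.18), Gpx4 (-0.06), Gsto1 (-0.03) and Mafk (-0.14). With limma on log2(FPKM + 1) those of Keap1 (-0.13), Gclc (-0.17), Gpx4 (-0.06), Gsto1 (-0.03) and Mafk (-0.12) were turned, and with log2(FPKM + 0.1) those of Keap1 (-0.14), Gclc (-0.18), Gpx4 (-0.06), Gsto1 (-0.03) and Mafk (-0.14). With quantile normalization those of Nfe2l2 (-0.13), Gclc (-0.06), Gpx4 (-0.17), Cat (-0.05), Gsto1 (-0.07) and Msrb1 (-0.01) were turned, and Nfe2l2 and Gpx4 were called lower. Without the expression filter Gpx1 (adjusted p = 0.176) and Blvra (0.0849) were not called. The cause of these differences was not tested. Slc7a11 ran from 4.56 to 5.88, Sod2 from 4.19 to 4.67, Prdx5 from 3.75 to 4.28 and Glrx from 2.50 to 2.91, called higher in all 14 alternatives. The ratios within libraries kept their direction with counts divided by 2 and with each library left out. Libraries with the same replicate number did not deviate together (correlations of -0.0832, -0.0727 and -0.0279). What the number stands for is not stated, so no conclusion on pairing is drawn. With the replicate block 25 members were higher and 6 lower, and of the other pathway genes 37 and 15. Depth limits Gsta4, which had 10 counts with CCL7 and 14 in controls.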

Other observations

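Some further pathway genes, chosen after their values were seen, stood beside members they work with. Ccs, which encodes the copper chaperone that loads SOD1, was at 11.4 ± 0.717 FPKM with CCL7 and 14.3 ± 0.352 FPKM in controls (log2 change -0.33 ± 0.06, edgeR adjusted p = 0.00106) and ran from -0.57 to -0.27 over 14 alternatives. Txn2, the mitochondrial thioredoxin gene that serves PRDX3, was at 35.0 ± 3.50 FPKM with CCL7 and 20.4 ± 0.735 FPKM in controls (0.78 ± 0.09). Msra, which repairs the other stereoisomer of oxidised methionine than MSRB1, was at 2.76 ± 0.124 FPKM with CCL7 and 6.24 ± 0.1 FPKM in controls (-1.18 ± 0.04). The NADPH-producing genes Me1 (1.55 ± 0.01), Pgd (1.06 ± 0.04) and G6pdx (0.72 ± 0.05) rose, as did Abcc1, which encodes an exporter of glutathione conjugates (1.43 ± 0.08). All of these were called in the same direction under the 14 alternatives. Txnrd2, a further thioredoxin reductase gene picked in the same way, was less stable. It was at 3.51 ± 0.358 FPKM with CCL7 and 4.09 ± 0.0983 FPKM in controls (-0.22 ± 0.09, edgeR adjusted p = 0.0359). Its call was kept in only 6 of the 14 alternatives.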
